A study of Mus musculus with 27 samples.

Results

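Ythdf3 knockout mouse embryonic stem cells were compared with wild-type cells of the same KH2 line, a C57BL/6 x 129/Sv stem cell line kept in serum with LIF. The comparison holds 4 poly(A) RNA-seq libraries, 2 per group, out of 12 stem cell libraries and 27 samples in the whole series. Members were taken by genotype label and not by any measured value. The other 8 stem cell libraries, 2 each of Ythdf1 knockout, Ythdf2 knockout, Ythdf1/2/3 triple knockout and Mettl3 knockout, helped estimate the spread, and the Ythdf knockouts among them served in 3 further contrasts. No group carried a drug or other treatment. The deleted part of each gene, the number of clones behind a genotype and whether libraries A and B came from separate cultures are not stated in the labels. The p-values therefore measure only the spread between these libraries, which may be technical.

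N6-methyladenosine (m6A) is a methyl mark on adenosines of mRNA, laid down by a complex built around Mettl3 and bound by proteins with a YTH domain. Ythdf1, Ythdf2 and Ythdf3 are cytoplasmic YTH proteins of closely similar sequence, linked to translation and decay of marked transcripts. In stem cell culture a small fraction of cells passes at any time through a state that transcribes genes of the 2-cell embryo, the stage at which the mouse genome is first switched on. The comparison asks which transcripts differ when Ythdf3 alone is lost, and the contrasts with the other knockouts ask where its loss differs from that of its relatives or of all 3 readers together.

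The wild-type libraries held 1099347 and 1111764 assigned counts and the Ythdf3 knockout libraries 612598 and 762352. Levels are given as CPM, counts scaled to library size with TMM factors, in the order library A, library B. One count was worth 0.901 and 0.892 CPM in wild type and 1.67 and 1.33 CPM in the knockout, so genes below about 10 CPM rest on few counts. The chi-square per gene between the 2 knockout libraries was 0.710, below the value of 1 that counting error alone gives, and it was 0.675 to 0.832 over the 6 pairs of one group. Between the knockout and the wild-type libraries the same measure was 1.25 to 1.32, against 0.842 to 0.973 between Ythdf3 and Ythdf1 knockout libraries and 0.891 to 1.07 between Ythdf3 and Ythdf2 knockout libraries. Defining markers of mouse stem cells were abundant in every library, among them Pou5f1, the central pluripotency factor, at 773 and 788 CPM in wild type and 868 and 815 CPM in the knockout.

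The Ythdf3 transcript itself (chromosome 3, 16183212 to 16217037, plus strand, GRCm38) stood at 73.0 and 66.0 CPM in wild type and 82.0 and 71.8 CPM in the knockout, a log2 change of 0.14 ± 0.23 (adjusted p = 0.867). Since the deleted part is not given, a count over the whole gene checks nothing about the labels.

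A gene was called at an adjusted p under 0.05 (edgeR quasi-likelihood test, Benjamini-Hochberg over all tested genes). Of 11951 genes tested, 340 were called, which is 2.84%. Among them 208 rose (1.74%) and 132 fell (1.10%), with 68 in each direction past 2-fold. The rises were mostly small changes of well expressed genes: their median log2 change was 0.55 at a median level of 124 CPM, and 107 of them were under 1.5-fold. The falls had a median log2 change of -1.02 at a median level of 38.2 CPM, against 56.0 CPM for all tested genes. The median log2 change of all tested genes was -0.00. Both knockout libraries lay above both wild-type libraries in 25.5% of tested genes and below them in 25.6%, called or not. Called genes past 4-fold were all at low levels, the most abundant being Usp17le, as the plot of change against level shows.

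**Figure D1:**
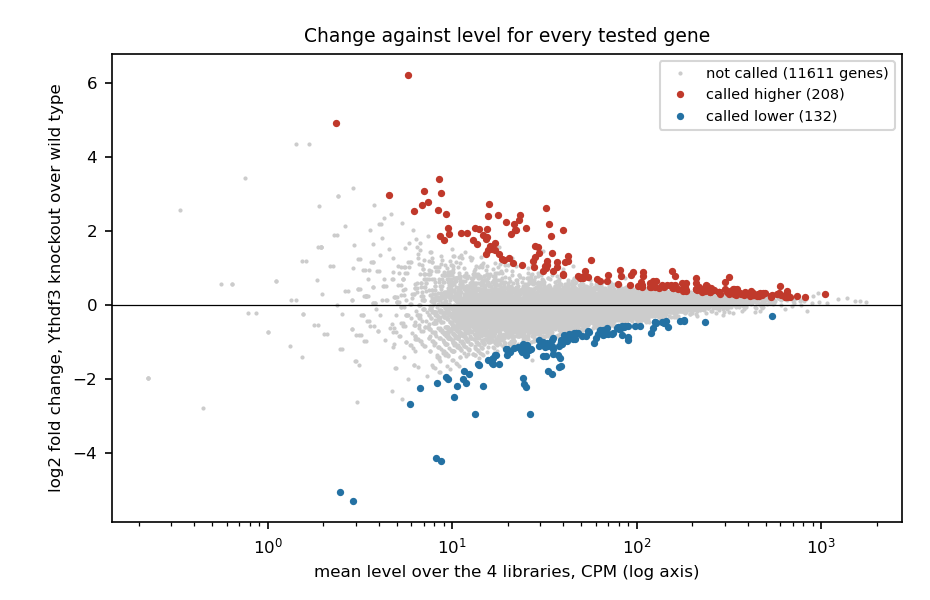
Log2 fold change of Ythdf3 knockout over wild type (vertical axis) against the mean level over the 4 libraries in CPM (horizontal log axis), 1 point per tested gene. The 208 genes called higher (red) extend along the abundant end with small changes, while the 132 called lower (blue) lie mostly at lower levels; 11611 genes (grey) were not called.

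How firmly a call stands depends on the test. With each of the 4 libraries left out in turn the number of calls fell to between 112 and 200, and 52 of the 340 genes (40 higher, 12 lower) were called in all 4 of these fits. DESeq2 called 25 of the same 340 genes, 24 higher and 1 lower, while limma-voom called 644. Of the 25 genes called by DESeq2, 15 belong to the 2-cell programme, which holds 40 of the 11951 tested genes. Among these 15 only Usp17le and Gm5662 passed, in wild type, the filter on low counts described below. DESeq2 was run without that filter, on all 14006 listed genes, each of which reaches 6 counts in some library. Genes low in wild type can be listed through knockouts in which they are high. This count is therefore no measure of how firmly the programme as a whole stands.

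Genes of the 2-cell embryo programme were among the strongest rises in Ythdf3 knockout cells. Of 55 genes on this list 40 were tested, and 21 of these rose and 0 fell, against 1.74% and 1.10% of all tested genes. How members entered the test limits what these counts show. The filter on low counts asks for about 10 counts in 2 libraries, and 9 of the 40 genes met it in wild type, 16 in the Ythdf3 knockout but not in wild type, and 15 in other knockouts only. A gene admitted by a knockout in which it is high had to differ, so the count of 21 and its share of the tested members are no measure of the programme as a whole. Of the 9 genes that wild type itself admitted 2 rose, Usp17le and Gm5662, and 0 fell, with a median log2 change of 0.12 against -0.01 for the 10720 genes that wild type admitted. With no filter, 21 genes of the list were called higher and 0 lower. That fit does not lift the limit, since the deposited counts hold 42 of the 55 genes and every listed gene reaches 6 counts in some library. Summed over the 40 tested genes, the level was 616 and 562 CPM in wild type and 1223 and 1155 CPM in the knockout, with the same limit. In bulk RNA, more cells in the 2-cell-like state and more RNA per cell cannot be told apart.

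The Usp17l genes encode deubiquitinases of a repeated family on chromosome 7, and all 5 tested members rose, against 1.74% of all tested genes. Only Usp17le met the filter on low counts in wild type, so this count has the limit given above. Usp17lb (chromosome 7, 104840257 to 104842603, minus strand) stood at 9.91 and 8.02 CPM in wild type and 51.9 and 59.8 CPM in the knockout. Its log2 change was 2.63 ± 0.30 (standard error), 6.19-fold, adjusted p = 2.77e-11. Usp17le went from 18 and 12.5 to 73.6 and 54.5 CPM (2.04 ± 0.24, adjusted p = 4.21e-10), the highest knockout level of the family. The groups of Usp17lb and Usp17le did not overlap and lay several standard errors apart. Usp17lc, at 12.6 and 10.7 against 65.3 and 45.2 CPM, rose by 2.20 ± 0.27 (adjusted p = 1.87e-09). Usp17la (5.41 and 4.46 against 16.7 and 21.3 CPM) and Usp17ld (5.41 and 7.13 against 18.4 and 27.9 CPM) were weaker. The call of Usp17la was lost without wild-type library B (adjusted p = 0.0781) or knockout library B (0.224), and that of Usp17ld without wild-type library A (0.0588) or knockout library B (0.266).

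The Zscan4 genes, also on chromosome 7, encode zinc-finger proteins that mark the 2-cell-like state and act in telomere maintenance. Of 5 tested copies 4 rose, a count with the same limit, since none of the 5 met the filter in wild type. Zscan4d went from 8.11 and 6.24 CPM to 40.2 and 38.5 CPM, a log2 change of 2.43 ± 0.34 (5.38-fold, adjusted p = 5.34e-08). Zscan4c went from 9.01 and 9.81 to 48.5 and 33.2 CPM (2.07 ± 0.31, adjusted p = 1.34e-06). In both genes each knockout library stood well above both wild-type libraries. Zscan4a was uneven in wild type, at 10.8 and 2.67 CPM, and stood at 28.4 and 35.9 CPM in the knockout (2.25 ± 0.39, adjusted p = 6.56e-06). Zscan4f rested on 3 counts in wild type and 17 in the knockout, and lost its call without wild-type library B (adjusted p = 0.0593). Zscan4b, at 1.8 and 0 against 6.69 and 6.65 CPM, was not called (adjusted p = 0.0865).

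Copies within each of these families are near identical, so reads could be split among them by the counting and values of single members are uncertain. The windows below lie mainly before the annotated start, so they do not show how reads were split, and transcript identity was not compared. They show how alike 3 copies of each family are around a shared TATAAA, and all are aligned on it. Its first base lies 54, 65 and 31 bases before the annotated start in Zscan4c, Zscan4d and Zscan4f and 31, 88 and 110 in Usp17lb, Usp17lc and Usp17ld, so 4 of the 6 windows end before the start. They are 120 bases from the RefSeq promoter table (GRCm38.p6), 5' to 3' along each gene, with capitals marking TATAAA and CCAAT or its reverse complement ATTGG. Positions are chr7:11005621-11005740 (plus strand) for Zscan4c, chr7:11166164-11166283 (minus strand) for Zscan4d, chr7:11397814-11397933 (plus strand) for Zscan4f, chr7:104842565-104842684 (minus strand) for Usp17lb, chr7:103416538-103416657 (plus strand) for Usp17lc, chr7:103252566-103252685 (minus strand) for Usp17ld.
Zscan4c: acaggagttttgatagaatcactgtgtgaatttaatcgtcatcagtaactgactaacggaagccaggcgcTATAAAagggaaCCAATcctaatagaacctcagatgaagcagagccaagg
Zscan4d: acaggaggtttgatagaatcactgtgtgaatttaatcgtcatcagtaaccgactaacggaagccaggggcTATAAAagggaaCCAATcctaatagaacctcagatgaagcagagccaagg
Zscan4f: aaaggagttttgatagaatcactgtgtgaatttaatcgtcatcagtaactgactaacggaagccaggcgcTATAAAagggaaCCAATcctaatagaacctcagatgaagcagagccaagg
Usp17lb: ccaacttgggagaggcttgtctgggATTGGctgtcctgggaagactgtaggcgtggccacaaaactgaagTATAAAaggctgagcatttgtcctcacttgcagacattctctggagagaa
Usp17lc: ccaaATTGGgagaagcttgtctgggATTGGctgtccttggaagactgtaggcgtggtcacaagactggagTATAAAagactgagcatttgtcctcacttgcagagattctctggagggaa
Usp17ld: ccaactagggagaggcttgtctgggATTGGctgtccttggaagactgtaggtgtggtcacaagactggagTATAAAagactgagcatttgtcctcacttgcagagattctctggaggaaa
The 3 Zscan4 windows were 96.7 to 99.2% identical to each other over 120 bases, and the 3 Usp17l windows 91.7 to 95.8%. Between the families identity was 24.2 to 29.2%. In promoters of 300 bases (250 before to 50 after the start), TATAAA searched on both strands was present in 6 of the 8 called 2-cell genes that have an entry, the 6 shown. It was present in 15.7% of all 27025 promoters, in 8.19% of those of tested genes, in 15.3% of genes called higher and in 9.62% of genes called lower. CCAAT on either strand was present in 7 of the same 8 and in 41.1% of all promoters. Near-identical copies count here as separate genes.

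Other members of the programme rose with these families. Tcstv1, transcribed from a 2-cell-specific repeated locus, went from 4.5 and 3.57 CPM to 28.4 and 26.6 CPM (2.72 ± 0.46, 6.59-fold, adjusted p = 2.05e-06). Tmem92, a small membrane protein gene, went from 9.91 and 5.35 to 33.5 and 37.2 CPM (2.20 ± 0.35). Arg2, the mitochondrial arginase, went from 9.91 and 7.13 to 35.1 and 30.6 CPM (1.92 ± 0.33, adjusted p = 6.59e-05). Tcstv1, Tmem92 and Arg2 lie on chromosomes 13, 11 and 12, and each was called with any 1 library left out. Tcstv1 has a close copy, Tcstv3, so its own level is uncertain. Spz1, a helix-loop-helix gene, had 0 counts in both wild-type libraries and 9 and 6 in the knockout, at least 8.27-fold higher by a floor of 3 counts over the group. The other called members were Tdpoz3, which lost its call without either wild-type library or knockout library B (adjusted p up to 0.537), and 7 predicted genes with log2 changes from 1.58 (Gm5662) to 2.43 (Gm12794).

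Members that were not called included several at low depth. Zfp352, a 2-cell zinc-finger gene, stood at 0 and 0.892 against 6.69 and 3.99 CPM (adjusted p = 0.0826). Tcstv3 stood at 0.901 and 1.78 against 5.02 and 9.30 CPM (adjusted p = 0.0892), and Nelfa, a pausing factor linked to the 2-cell state, at 129 and 115 against 162 and 163 CPM (adjusted p = 0.0509). The 3 members with both knockout libraries below wild type were Dnmt3l, the catalytically inactive cofactor of de novo DNA methylation (74.8 and 77.6 against 51.9 and 61.1 CPM, adjusted p = 0.281), Zfp280c and Zfp760. None of the 3 was called. The count of 21 rises ranged from 15 (DESeq2) to 24 (limma-voom) over all alternatives, with 0 falls in each.

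**Figure D2:**
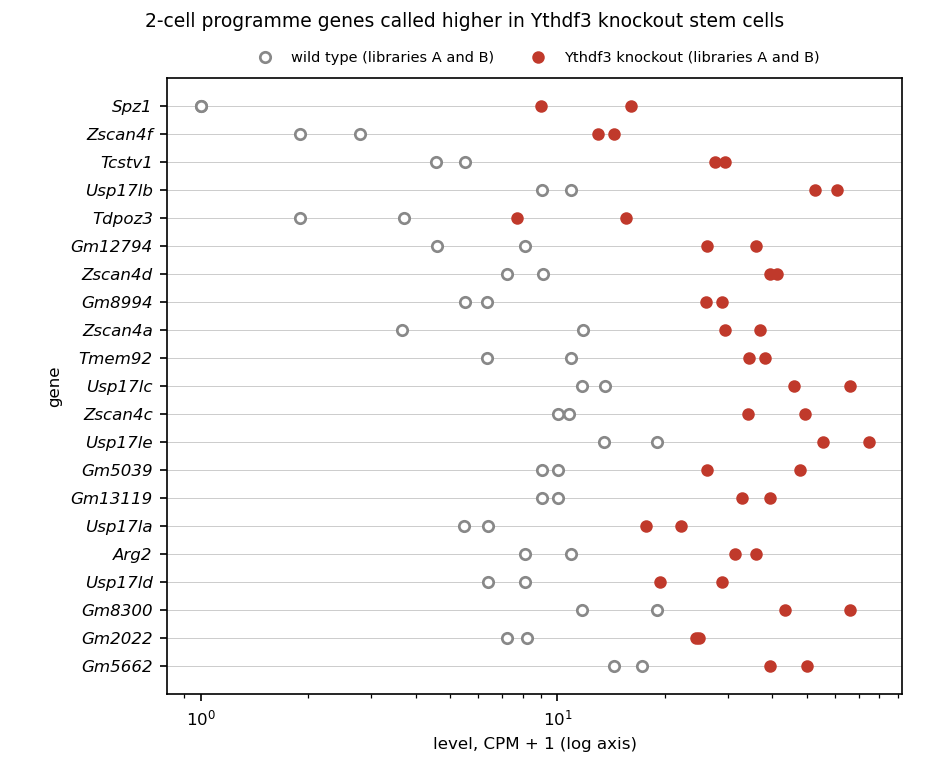
Level (CPM + 1, log axis) of the 21 called 2-cell programme genes in the wild-type libraries (open circles) and the Ythdf3 knockout libraries (red), ordered by fitted change. The knockout libraries lie to the right of the wild-type libraries for each gene; Spz1 is at 0 in wild type.

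Core stem cell markers were slightly higher in the knockout. Of 8 markers 4 rose and 0 fell, against 1.74% of all tested genes called higher. Both knockout libraries lay above both wild-type libraries for all 8, against 25.5% of all tested genes. The median log2 change was 0.27 against -0.00 over all genes. Among the 8301 tested genes whose mean log2 CPM reached 5, the median was 0.025. Both knockout libraries lay above both wild-type libraries in 2473 of these 8301 genes. Nanog, a homeobox factor that stabilises pluripotency, stood at 493 and 494 CPM in wild type and 694 and 716 CPM in the knockout, a log2 change of 0.52 ± 0.07 (adjusted p = 1.65e-07). Tdgf1, the Nodal co-receptor also called Cripto, went from 564 and 563 to 745 and 732 CPM (0.39 ± 0.06, adjusted p = 9.17e-06). For Nanog and Tdgf1 the gap between groups was many times the gap between libraries of a group, and both were called with any library left out. Dppa5a, a stem cell RNA-binding protein gene (437 and 445 against 540 and 556 CPM, 0.32 ± 0.07), lost its call without knockout library B (adjusted p = 0.106). Sox2, the partner of Pou5f1 (441 and 414 against 569 and 501 CPM, 0.31 ± 0.07), lost its call without wild-type library B (0.0761) or knockout library A (0.247). Pou5f1 (0.10 ± 0.06, adjusted p = 0.421), Zfp42 (0.22 ± 0.08, adjusted p = 0.199), Esrrb (0.06 ± 0.07, adjusted p = 0.799) and Utf1 (0.12 ± 0.13, adjusted p = 0.822) were not called.

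The wider list of naive pluripotency genes had 4 rises and 0 falls among 30, against 1.74% of all tested genes called higher, with a median of 0.08. The rises were Nanog, Dppa5a, Sox2 and Fbxo15, an F-box gene of undifferentiated cells (223 and 250 against 403 and 396 CPM, 0.76 ± 0.08, adjusted p = 3.59e-10). Fbxo15 lies in a segment of chromosome 18 described below. None of the 15 formative and primed genes was called (median -0.05). In the Nodal list Tdgf1 rose and the other 18 genes were not called (median 0.07). Among 16 genes of LIF signalling Pim1, a kinase gene induced by STAT3, rose (135 and 130 against 184 and 178 CPM, 0.45 ± 0.10, adjusted p = 0.0210). Il6st, the shared receptor chain gp130, fell (161 and 136 against 117 and 97 CPM, -0.48 ± 0.13, adjusted p = 0.0278). Pim1 was not called with any 1 library left out, and Il6st only without wild-type library B.

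In the list of BMP ligands, receptors and targets 2 of 15 genes fell and 0 rose (median -0.04), against 1.10% of all tested genes called lower. Bmp4, a secreted ligand that supports self-renewal in serum and LIF and later induces mesoderm, went from 35.1 and 41.0 CPM to 15.1 and 5.32 CPM (-1.97 ± 0.39, adjusted p = 3.94e-05). Id1, a BMP target that blocks helix-loop-helix differentiation factors, went from 19.8 and 26.7 to 6.69 and 9.30 CPM (-1.50 ± 0.44, adjusted p = 0.0241). The knockout libraries lay below wild type in both, and those of Bmp4 differed from each other by more than the wild-type pair. Without knockout library B the adjusted p of Bmp4 was 0.144, and that of Id1 was 0.248, 0.276 and 0.180 without wild-type library B, knockout library A and knockout library B.

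In the list of Wnt ligands, receptors and targets 4 of 16 genes fell and 0 rose, against 1.10% of all tested genes called lower, with a median of -0.34. Cdx2, a homeobox factor of trophoblast and posterior body, stood at 19.8 and 18.7 against 6.69 and 3.99 CPM (-1.86 ± 0.56, adjusted p = 0.0146). Axin2, a feedback inhibitor of the pathway, stood at 60.4 and 58.0 against 26.8 and 41.2 CPM (-0.76 ± 0.22, adjusted p = 0.0447). Sp5, a direct target (73.0 and 85.6 against 55.2 and 43.9 CPM, -0.70 ± 0.18), and Cdx1, a relative of Cdx2 (188 and 207 against 127 and 163 CPM, -0.42 ± 0.10), also fell. These calls were near the threshold: without single libraries the list had 3 falls (wild-type A), 0 (wild-type B), 0 (knockout A) and 1 (knockout B).

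Of 15 tested neural genes 4 fell and 0 rose, against 1.10% of all tested genes called lower. Of the 10 that passed the filter on low counts in wild type 3 fell, with a median of -0.28. Both knockout libraries lay below wild type for 6 of them (25.6% over all tested genes). The summed level of the list was 641 and 608 CPM in wild type and 482 and 533 in the Ythdf3 knockout. It was 557 and 555 in the Ythdf1, 516 and 509 in the Ythdf2, 625 and 594 in the triple and 754 and 729 in the Mettl3 knockout. Foxd1, a forkhead factor of developing forebrain and kidney stroma, went from 41.4 and 41.9 CPM to 8.37 and 9.30 CPM (-2.21 ± 0.40, 4.63-fold lower level, adjusted p = 2.49e-06). Each pair agreed closely, and Foxd1 was called with any library left out. Mal, a myelin membrane protein gene (19.8 and 15.2 against 1.67 and 3.99 CPM), Nkx6-3 (53.2 and 49.9 against 23.4 and 29.2 CPM) and Map2, which binds dendritic microtubules (9.91 and 12.5 against 1.67 and 2.66 CPM), fell too. Mal kept its call only without wild-type library B, Nkx6-3 and Map2 in no leave-out fit. Cxcr4, the chemokine receptor of migrating mesoderm and germ cells, was the single fall among 7 mesoderm and streak genes (30.6 and 24.1 against 3.35 and 13.3 CPM, -1.60 ± 0.42, adjusted p = 0.00608). Without wild-type library A its adjusted p was 0.120, and without knockout library A 0.371. The 16 trophoblast genes had no call other than Cdx2. Nid1 and Sparc, basement membrane genes, rose among 10 primitive endoderm genes (0.30 ± 0.07 and 0.32 ± 0.07), against 1.74% of all tested genes. Nid1 lost its call without either B library and Sparc without any 1 of the 4.

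Among genes with a mean log2 CPM above 4, the largest falls outside the pathway lists included Zmat4, Pou4f2, Sult4a1 and Armcx2. Zmat4, which encodes a zinc-finger protein, went from 43.2 and 50.8 CPM to 1.67 and 9.30 CPM (-2.96 ± 0.49, 7.77-fold lower level, adjusted p = 1.87e-08). It was the only gene that DESeq2 called lower. Pou4f2, a POU homeobox factor of retinal ganglion cells, stood at 46.8 and 33.0 against 8.37 and 9.30 CPM (-2.15 ± 0.40, adjusted p = 4.83e-06). Sult4a1, a brain sulfotransferase-like gene, stood at 56.8 and 51.7 against 16.7 and 13.3 CPM (-1.86 ± 0.30, adjusted p = 4.99e-07). Armcx2, an armadillo-repeat gene on the X chromosome, stood at 58.6 and 54.4 against 20.1 and 21.3 CPM (-1.44 ± 0.25, adjusted p = 4.19e-05). These 4 genes were called with each library left out, and in each the knockout libraries lay far below both wild-type libraries.

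Klk11, a secreted serine protease of the kallikrein cluster on chromosome 7, went from 47.7 and 54.4 CPM to 15.1 and 14.6 CPM (-1.78 ± 0.30, adjusted p = 3.07e-06), and was called with each library left out. Its cluster neighbours Klk10 (53.2 and 51.7 against 23.4 and 27.9 CPM, adjusted p = 0.00864), Klk13 (25.2 and 32.1 against 11.7 and 10.6 CPM, adjusted p = 0.0182) and Klk8 (64.9 and 70.4 against 41.8 and 41.2 CPM, adjusted p = 0.0455) were also called lower. These neighbours were picked out after their values were seen. Klk10 kept its call only without wild-type library B, Klk13 only without wild-type library A, and Klk8 in no leave-out fit. Ang, a secreted ribonuclease (27.9 and 22.3 against 10.0 and 6.65 CPM, -1.60 ± 0.43), Cds1, a phospholipid enzyme (25.2 and 24.1 against 10.0 and 6.65 CPM, -1.58 ± 0.41), and Nsg2, a neuronal vesicle gene (25.2 and 24.1 against 1.67 and 14.6 CPM, -1.46 ± 0.43), also fell. Ang and Cds1 kept the call only without wild-type library B, and Nsg2 only without knockout library B.

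**Figure D3:**
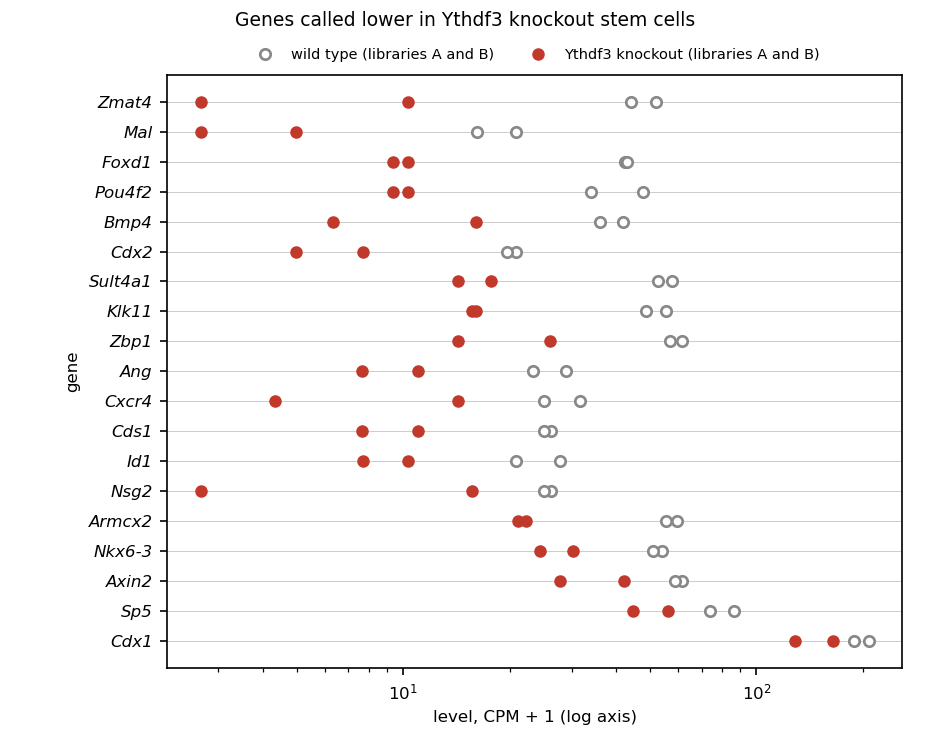
Level (CPM + 1, log axis) of 19 genes called lower in Ythdf3 knockout cells, ordered by fitted change, with wild-type libraries as open circles and knockout libraries in red. The groups are separate for each gene; the knockout libraries of Nsg2, Cxcr4 and Zmat4 lie far apart from each other.

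Zbp1, a cytosolic sensor of Z-form nucleic acid that triggers cell death, was the single call among 23 genes of nucleic acid sensing and interferon response (median -0.20). Of all tested genes 1.10% were called lower. It stood at 55.9 and 60.6 CPM in wild type and 25.1 and 13.3 CPM in the knockout (-1.65 ± 0.27, 3.13-fold lower level, adjusted p = 2.27e-06). Without knockout library B the adjusted p was 0.0593. Irgm1, an interferon-induced GTPase gene outside the list and named after its value was seen, stood at 26.1 and 21.4 against 1.67 and 3.99 CPM (-2.94 ± 0.68, adjusted p = 3.90e-05).

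Among 34 tested germline and meiosis genes 3 rose and 1 fell, against 1.74% and 1.10% of all tested genes. Of the 28 that passed the filter on low counts in wild type, both knockout libraries lay above wild type for 17 (25.5% over all tested genes), with a median log2 change of 0.30. Other lists leaned the same way, with 17 of 29 heat shock genes and 23 of 43 translation factors above wild type and 7 of each below. Hormad1, a chromosome axis protein of meiosis, went from 77.5 and 58.0 to 126 and 113 CPM (0.81 ± 0.13, adjusted p = 0.000186). Its relative Hormad2 moved the other way, from 43.2 and 54.4 to 18.4 and 23.9 CPM (-1.18 ± 0.27, adjusted p = 0.00286). Dpep3, a testis dipeptidase gene (21.6 and 24.1 against 46.9 and 54.5 CPM, 1.16 ± 0.22, adjusted p = 0.00158), and Dazl, an RNA-binding factor of germ cells (90.1 and 81.1 against 119 and 130 CPM, 0.55 ± 0.12, adjusted p = 0.0197), rose. Without wild-type library B the adjusted p was 0.0667 for Hormad1 and 0.0977 for Hormad2, without knockout library A it was 0.125 for Hormad2, and without knockout library B it was 0.162 for Dpep3. Dazl lost its call without any 1 library. In the imprinted list Slc38a4, a paternally expressed amino acid transporter gene, went from 110 and 106 to 204 and 201 CPM (0.90 ± 0.12, adjusted p = 2.04e-07) and was called in every leave-out fit and by DESeq2. Peg10, a retrotransposon-derived imprinted gene, fell (97.3 and 97.2 against 68.6 and 57.2 CPM, -0.64 ± 0.15) but kept its call in none of the leave-out fits, and the other 26 imprinted genes were not called.

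Metabolic and stress lists held a few small changes, beside 1.74% of all tested genes called higher and 1.10% called lower. Msmo1, a sterol demethylase of cholesterol synthesis, went from 230 and 242 to 387 and 346 CPM (0.63 ± 0.08, adjusted p = 4.04e-08), and was called in every leave-out fit and by DESeq2. Scd2, a fatty acid desaturase gene on the same list, stood at 364 and 358 against 509 and 437 CPM (0.38 ± 0.07), and lost its call without knockout library A (adjusted p = 0.156). The other 25 cholesterol genes were not called, and the median of the list was 0.13. Among 25 p53 targets 3 rose and 0 fell (median 0.12), namely Pmaip1, the pro-death factor Noxa (64.0 and 58.0 against 102 and 106 CPM, 0.78 ± 0.14), Gtse1, a regulator of p53, and Ddit4, an inhibitor of mTOR. Among 25 ATF4 and amino acid genes Asns, Cth, Ddit4 and Eif4ebp1 rose and Phgdh, the entry enzyme of serine synthesis, fell (74.8 and 92.7 against 61.9 and 47.8 CPM, -0.63 ± 0.17, adjusted p = 0.0415). Phgdh kept its call only without wild-type library A. Pmaip1 lost its call without knockout library B (adjusted p = 0.0885), and the ATF4 list had 0, 3, 0 and 1 rises and the p53 list 1, 3, 1 and 0 rises without wild-type A, wild-type B, knockout A and knockout B.

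Lists of housekeeping functions moved little, beside the same shares of 1.74% and 1.10% of all tested genes called higher and lower. Of 81 ribosomal protein genes 4 rose and 0 fell, with a median of 0.08. Both knockout libraries lay above wild type for 38 of these 81 and below for 9, against 25.5% and 25.6% over all tested genes. Of 72 respiratory chain genes 2 rose (Cox8a and Atp5b, median 0.09), as did 2 of 45 cell cycle genes (Top2a and Cdk4, median 0.13), 2 of 29 glycolysis genes (Ldhb and Slc2a3, median 0.02) and 2 of 25 splicing factors (Hnrnpl and Hnrnpa1, median 0.11). The highest log2 change among these 12 called genes was 0.41, for Cox8a. Of 43 translation factors 2 rose and 1 fell, of 32 adhesion and cytoskeleton genes 3 rose and 1 fell, of 29 heat shock genes 1 rose and 1 fell, and of 24 histone genes 1 rose. The ribosomal list had 0, 5, 1 and 0 rises without wild-type A, wild-type B, knockout A and knockout B. Mtf2, a Polycomb accessory factor, rose among 18 Polycomb genes (140 and 142 against 228 and 198 CPM, 0.59 ± 0.10, adjusted p = 0.000185), and lost its call without knockout library A (0.0641). None was called among 13 retinoic acid, 18 immediate early, 17 DNA methylation, 14 snoRNA host, 30 lysosome and 27 peroxisome genes. Fibroblast feeder markers had 5 tested genes and 0 calls, and summed to 155 and 136 CPM in wild type and 126 and 144 CPM in the knockout.

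The m6A machinery showed few differences, beside 1.74% of all tested genes called higher and 1.10% called lower. None of 11 writer complex genes was called (median 0.00), Mettl3 standing at 141 and 137 against 147 and 133 CPM (0.00 ± 0.10, adjusted p = 0.996). Among 15 readers and erasers Rbmx, an m6A-switch RNA-binding protein gene on the X chromosome, fell (88.3 and 101 against 61.9 and 59.8 CPM, -0.64 ± 0.15, adjusted p = 0.0246), a call lost without wild-type library B or either knockout library. Ythdf1, at 179 and 173 against 159 and 145 CPM, changed by -0.22 ± 0.10 (adjusted p = 0.417). Ythdf2, at 26.1 and 25.0 against 36.8 and 37.2 CPM, changed by 0.53 ± 0.24 (adjusted p = 0.370). Neither passed the test, although the groups did not overlap. Of 41 deadenylation, decapping and exosome genes 1 was called (2.44%), near the 2.84% of all tested genes. This was Dis3, the exosome nuclease, at 168 and 148 against 120 and 109 CPM (-0.47 ± 0.12, adjusted p = 0.0282). Its call was kept only without wild-type library B. Dis3 lies in the segment of chromosome 14 described next.

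Transcripts at the end of chromosomes 14 and 18 were shifted as a block, a pattern picked out after the values were seen. Of 38 genes that start beyond 80 Mb on chromosome 14, counting those whose mean log2 CPM reaches 5, 35 were lower in the knockout, with a median log2 change of -0.32 against 0.01 for the rest of the chromosome. Of 51 tested genes there 11 fell and 0 rose, against 1.10% and 1.74% of all tested genes. Among the 11 were Rbm26, an RNA-binding protein gene (265 and 275 against 228 and 171 CPM, -0.46 ± 0.09, adjusted p = 0.00142), Tdrd3, Dis3 and Klf12. Without knockout library B the adjusted p of Rbm26 was 0.533. On chromosome 18 beyond 80 Mb 14 of 16 such genes were higher, with a median of 0.48 against 0.04 for the rest. There 6 of 21 tested genes rose and 0 fell, beside the same shares of all tested genes. Fbxo15, Txnl4a, a spliceosome component, and Cyb5a, a cytochrome, were among those 6. Over 226 bins of 10 Mb with at least 10 genes, the lowest medians were -0.33 and -0.26, both on chromosome 14, and the next was -0.16. The highest was 0.46, on chromosome 18, and the next was 0.16.

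The same shifts stood in every knockout library against both wild-type libraries. Median log2 ratios to the wild-type mean on distal chromosome 14 were -0.27 and -0.36 in the Ythdf3 knockout, -0.20 and -0.22 in the Ythdf1 knockout, -0.47 and -0.47 in the Ythdf2 knockout, -0.44 and -0.43 in the triple knockout and -0.68 and -0.58 in the Mettl3 knockout. On distal chromosome 18 they were 0.49 and 0.42 in the Ythdf3 knockout and between 0.36 and 0.73 in the other knockout libraries. The wild-type libraries themselves were within 0.03 of 0 on both segments. All these ratios share the wild-type libraries. The libraries hold RNA only, and the part of this shift in single calls from the segments was not tested. With the genes of both segments left out of the fit 310 genes were called, 195 higher and 115 lower, including the same number of 21 rises in the 2-cell programme.

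**Figure D4:**
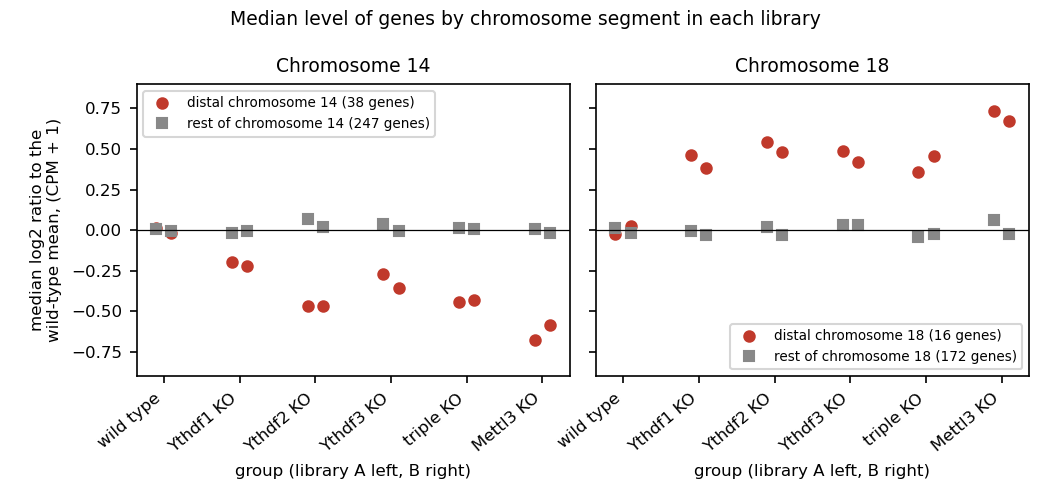
Median log2 ratio of each library to the wild-type mean, on CPM + 1, for genes beyond 80 Mb (red circles) and on the rest (grey squares) of chromosomes 14 and 18, in 6 groups of 2 libraries. Red points of all 10 knockout libraries lie below 0 on chromosome 14 and above 0 on chromosome 18, while grey points stay near 0.

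Of the 340 called genes 259 belonged to no list, 148 higher and 111 lower. By the rule for large rises these included Ttll6, a tubulin-modifying ligase gene of cilia (14.4 and 13.4 against 45.2 and 39.9 CPM, 1.59 ± 0.28, adjusted p = 7.66e-05), which was called with each library left out. Fam166a, Serpinf1, a secreted anti-angiogenic factor, and Ubap1l rose by 1.67, 1.58 and 1.51 on the log2 scale, with the call kept in 1, 2 and 0 of the 4 leave-out fits. The most abundant called rise was Sfpq, a paraspeckle and splicing factor (914 and 958 against 1220 and 1110 CPM, 0.31 ± 0.06, adjusted p = 0.000342), with 0.0689 without knockout library A. The most abundant called fall was Tmsb10, an actin-sequestering peptide gene (604 and 593 against 517 and 459 CPM, -0.30 ± 0.07, adjusted p = 0.00864), lost without wild-type library A or knockout library B.

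A further set was picked after the fact as the genes outside the lists that both DESeq2 and every leave-out fit called. Besides Gm4971 these were Calcoco2, an autophagy receptor gene (160 and 152 against 269 and 253 CPM, 0.73 ± 0.09), Fads2, a fatty acid desaturase gene (112 and 123 against 207 and 201 CPM, 0.79 ± 0.10), Olig2, an oligodendrocyte lineage factor (79.3 and 72.2 against 142 and 140 CPM, 0.89 ± 0.12), Rhox5, a reproductive homeobox gene of the X chromosome (59.5 and 51.7 against 109 and 106 CPM, 0.95 ± 0.14), and Zmat4. In each of the 4 named rises the lower knockout library lay far above the higher wild-type library.

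Called transcripts differed in size by direction. The longest protein-coding transcript had a median length of 2055 bases for genes called higher, 3199 for genes called lower and 3038 for all tested genes (GENCODE M21). Median GC content was 49.8%, 51.7% and 50.5%. Matches to GGAC, a common core of m6A sites, stood at 4.08, 4.23 and 4.18 per kb, and matches to the wider motif DRACH at 20.8, 19.9 and 20 per kb. The lengths are a description with no test. The 208 genes called higher had a median level of 124 CPM, against 56.0 CPM for all tested genes. The 68 of them past 2-fold had a median length of 1987 bases at a median level of 17.8 CPM. The 68 called lower past 2-fold had 3171 bases at 23.7 CPM. In these smaller sets DRACH stood at 22.4 and 19.9 per kb and GGAC at 4.27 and 4.10 per kb. Whether length goes with level was not tested.

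Against the other single knockouts few genes differed. No gene of the BMP or neural lists was called against either, and of the Wnt list only Sp5, lower than in the Ythdf2 knockout. Zmat4, Foxd1, Pou4f2, Sult4a1 and Armcx2, lower than in wild type, were called against neither. Between Ythdf3 and Ythdf1 knockout cells 38 of 11951 genes were called (0.318%), 11 higher in Ythdf3 knockout cells and 27 lower. The 2-cell programme, with 40 tested genes, held 10 of the genes called lower and 0 called higher. This count shares the limit on how members entered the test, since some were admitted only through other knockouts. Chromosome 13 as a whole stood apart in this contrast, with 229 of 290 genes lower in the Ythdf3 knockout and a median of -0.12, where no other chromosome had more than 54.5% of its genes lower. Its median log2 ratio to wild type was 0.14 and 0.09 in the Ythdf1 knockout libraries and 0.02 and -0.03 in the Ythdf3 knockout libraries. Tcstv1 and Tcstv3 lie on chromosome 13 and are 2 of the 10 genes, and the part of this shift in their values was not tested. The other 8 lie on other chromosomes. Usp17le stood at 152 and 166 CPM in the Ythdf1 knockout against 73.6 and 54.5 CPM in the Ythdf3 knockout, a difference of -1.34 ± 0.14 (adjusted p = 5.64e-11). Tcstv3 stood at 27.8 and 42.6 against 5.02 and 9.30 CPM (-2.23 ± 0.46, adjusted p = 0.000186). The Zscan4 genes were not called in this contrast, Zscan4d standing at 50 and 54.7 against 40.2 and 38.5 CPM (-0.41 ± 0.21, adjusted p = 0.998). Msmo1 (0.58 ± 0.08, adjusted p = 3.11e-06) and Tdgf1 (0.31 ± 0.06, adjusted p = 0.00449) were higher in the Ythdf3 knockout, at 252 and 234 against 387 and 346 CPM for Msmo1 and 577 and 613 against 745 and 732 CPM for Tdgf1.

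Between Ythdf3 and Ythdf2 knockout cells 60 genes were called (0.502%), 34 higher and 26 lower in the Ythdf3 knockout. Here 9 of the 40 tested genes of the 2-cell programme were higher in the Ythdf3 knockout and 0 lower. This count has the same limit, since only Usp17le and Gm5662 among them met the filter on low counts in wild type. Zscan4a stood at 7.76 and 8.15 CPM in the Ythdf2 knockout against 28.4 and 35.9 CPM in the Ythdf3 knockout (2.01 ± 0.41, adjusted p = 0.00114). Nanog (561 and 580 against 694 and 716 CPM, 0.31 ± 0.07, adjusted p = 0.0158) and Hormad1 (1.13 ± 0.16, adjusted p = 4.40e-06) were higher. Klk11 was lower, at 47.8 and 54.7 against 15.1 and 14.6 CPM (-1.79 ± 0.30, adjusted p = 6.07e-05). Mest, an imprinted gene, differed by -4.24 ± 0.55 (adjusted p = 2.59e-15), with 71.1 and 74.5 CPM in the Ythdf2 knockout, 1.67 and 5.32 CPM in the Ythdf3 knockout and 2.7 and 2.67 CPM in wild type. By DESeq2 these 2 contrasts held 1 and 2 calls.

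Loss of all 3 readers differed far more from loss of Ythdf3 alone. There 1125 genes were called (9.41%), 660 higher and 465 lower in the triple knockout. Of the 40 genes of the 2-cell programme 35 were higher and 0 lower in the triple knockout, a count with the same limit on how members entered the test. Usp17lb reached 223 and 227 CPM against 51.9 and 59.8 CPM in the Ythdf3 knockout (2.00 ± 0.15, adjusted p = 1.04e-19), and the summed level of the list was 3740 and 3719 CPM. In rising order the summed level was 568 and 535 CPM in the Mettl3 knockout, 616 and 562 in wild type, 703 and 715 in the Ythdf2 knockout, 1223 and 1155 in the Ythdf3 knockout, 1956 and 1975 in the Ythdf1 knockout and 3740 and 3719 in the triple knockout. The Mettl3 knockout and wild-type libraries overlapped in this order, and the other neighbours did not. These sums have the same limit, since they run over the 40 tested genes and wild type admitted 9 of them. Members admitted by knockouts in which they are high lower the place of wild type, so the order does not rank the programme as a whole. Zbp1, at 4.68 and 2.74 CPM in the triple knockout, was lower than in the Ythdf3 knockout (-2.30 ± 0.61, adjusted p = 0.00289). Tdgf1 went the opposite way to its rise in the single knockout, at 490 and 454 CPM (-0.65 ± 0.07, adjusted p = 6.28e-11). Foxd1 (0.09 ± 0.52, adjusted p = 0.947) and Bmp4 (0.44 ± 0.48, adjusted p = 0.696) were not called between the triple and the Ythdf3 knockout.

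**Figure D5:**
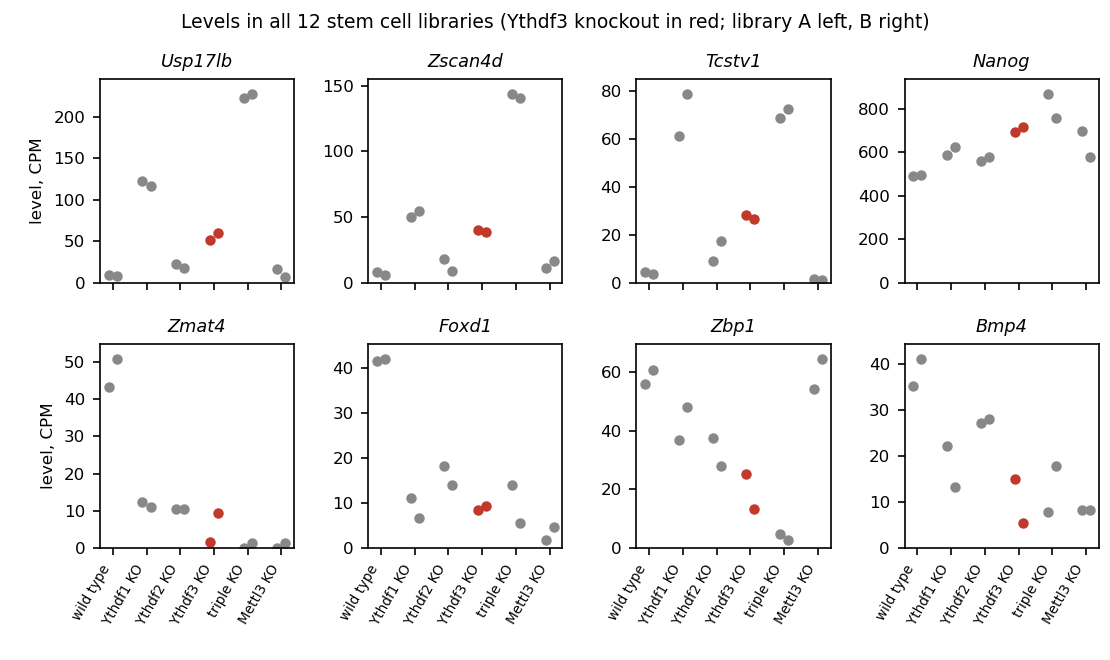
Level in CPM (linear axes from 0) of 8 genes in all 12 stem cell libraries, 2 per group, with Ythdf3 knockout libraries in red. Usp17lb, Zscan4d and Tcstv1 in the Ythdf3 knockout lie between the Ythdf2 and the Ythdf1 knockout; Zmat4, Foxd1, Zbp1 and Bmp4 lie below wild type.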

How the data were processed

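The deposited stem cell table holds raw counts per gene for 12 libraries, made by the authors from poly(A) RNA of cells in Trizol with the ScriptSeq v2 kit, per the labels' protocols. CASAVA 1.8.2, cutadapt, STAR 2.4.2a, DESeq2 and the build mm10 are listed in the submitters' processing notes. Which program counted the reads, on which annotation, and whether duplicate reads were removed, which would lower counts of abundant genes, is not given in these sources. No gene held more than 0.182% of a library's counts. Listed genes reach 6 counts in at least 1 library. Per-sample columns without a sample number 0.

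Counts of 12 libraries in 6 groups were fitted by edgeR's robust quasi-likelihood test (edgeR 4.0.16, R 4.3.3) after TMM scaling and a filterByExpr filter by group, keeping 11951 of 14006 genes. Calls are at a Benjamini-Hochberg adjusted p under 0.05. Standard errors are Wald errors of the log2 change. A group at 0 counts was given a floor of 3 counts over the group. Total counts ran from 612598 to 1111764. The errors were scaled by the fitted quasi-likelihood dispersion of each gene, whose median was 0.706. They can therefore be smaller than counting error alone would give, and they cover no spread beyond that between these libraries. The script was tested on simulated data.

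The members, the 39 gene lists and the comparisons were chosen with earlier results of these data known. Lists are described by counts and medians. Named genes are the YTH readers and Mettl3, the 12 largest called rises and falls whose mean log2 CPM reached 4 and whose groups were separate (no predicted genes, ribosomal pseudogenes, Y-linked or mitochondrial genes, or Xist), called list members (up to 6 a list by smallest p), the 5 most abundant calls each way and the 5 largest differences each way in the other contrasts, and the text gives examples of these. Alternatives were RLE scaling, no filter and a filter of 20 CPM, a fit on the libraries compared, DESeq2 1.42.0, the likelihood ratio test, limma-voom (limma 3.58.1), a replicate block and leaving out each library. Gene positions and transcripts are from GENCODE M21, promoters from RefSeq (GRCm38.p6), matched by symbol.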

Additional observations from a re-analysis of the deposited data

Results flagged for a closer look

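These genes differed between the Ythdf3 knockout and a sister single knockout by a direct test of the difference (edgeR quasi-likelihood, 2 libraries a group). Usp17lb, Usp17lc, Zscan4d and Zscan4a did not meet the filter on low counts in wild type and entered the test through knockouts. How the calls of these contrasts depend on the test is given below. Against the Ythdf1 knockout the log2 difference, Ythdf3 knockout minus Ythdf1 knockout, was -1.085 for Usp17lb (adjusted p = 7.963e-06), -1.081 for Usp17lc (adjusted p = 1.22e-05), -1.336 for Usp17le (adjusted p = 5.644e-11) and -1.189 for Zbp1 (adjusted p = 0.04115).

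Against the Ythdf2 knockout it was 1.471 for Usp17lb (adjusted p = 0.0003757), 1.008 for Usp17le (adjusted p = 0.01719), 1.532 for Zscan4d (adjusted p = 0.005071), 2.013 for Zscan4a (adjusted p = 0.001144) and -1.786 for Klk11 (adjusted p = 6.075e-05). Ythdf2 itself differed by 1.385 (adjusted p = 0.01874), at 18.1 and 10.5 CPM in the Ythdf2 knockout against 36.8 and 37.2 CPM in the Ythdf3 knockout.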

How the results depend on the processing

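Against wild type 340 genes were called. DESeq2 called 25 (24 of them higher, or 96.0% against 61.2% in the main test) and, with a mean dispersion trend added after the data were seen, 33; limma-voom called 644. Leaving out single libraries gave 112 to 200 calls, the lowest without knockout library B. Against the Ythdf1 knockout (38 calls) DESeq2 called 1, and leaving out single libraries gave 11 to 22. Against the Ythdf2 knockout (60 calls) DESeq2 called 2 and limma-voom 91, and leaving out single libraries gave 11 to 28. For the triple against the Ythdf3 knockout (1125 calls) DESeq2 called 194 and limma-voom 1728, and leaving out single libraries gave 536 to 700. A leave-out fit has 1 library in a group, which is assumed to vary like the other groups. The cause of these differences was not tested, beyond the fewer libraries in the leave-out fits.

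Scaling, filters, the 4-library fit and the likelihood ratio test moved none of these counts by more than 1.5 times. With the library letter as a replicate block the counts were 347, 41, 62 and 1140. The letters share only a letter. Deviations of library A from its group mean correlated at 0.0082 to 0.0688 between the Ythdf3 knockout and each other group. Of 101 named genes called against wild type 81 lost their call with DESeq2 and 38 to 61 with a library left out. With the 20 CPM filter 7 lost it and 15 more were not tested. None of the 101 reversed. Single counts were worth up to 1.67 CPM, which limits what low genes can show.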
